A study of Homo sapiens with 4 samples.

Results

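The 7 genes described here are ACAT2, HMGCS1, SQLE and FDFT1 of cholesterol synthesis, INSIG1 and SREBF2 of its control, and SOD2, which lies beside ACAT2 on chromosome 6 on the opposite strand. They were taken by symbol from a table of 59385 rows, and all 7 passed the filter on low counts that left 24431 rows for testing. RNA was sequenced from C4-2, an established prostate cancer line of LNCaP descent that carries the androgen receptor and can grow when androgen is withdrawn. Cells carried a small interfering RNA against EZH2 (siEZH2, 2 libraries) or a control one (siCTRL, 2 libraries), and all were grown in the same serum-supplemented medium. The comparison addresses the effect on expression of depleting EZH2, the methyltransferase subunit of Polycomb repressive complex 2. Whether the replicates came from separate cultures is not in the labels, so each p-value rests on a spread between libraries that may be technical only.

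Cells make cholesterol from acetyl-CoA. ACAT2, the cytosolic thiolase, joins acetyl-CoA units, HMGCS1 adds another to give HMG-CoA, FDFT1 (squalene synthase) makes the first sterol-committed intermediate and SQLE (squalene epoxidase) opens the way to the ring structure. The transcription factor SREBP-2, encoded by SREBF2, switches these genes on when sterols are scarce, and INSIG1 holds it in the endoplasmic reticulum when sterols are plentiful. Prostate cancer cells use cholesterol as a membrane component and as a precursor of steroids. SOD2, the manganese superoxide dismutase of mitochondria, has no role in this pathway and is read with ACAT2 for its place on the chromosome.

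The deposited rows appear to hold mostly reads from the strand opposite the gene they are named for, and this bears on every value below. The libraries came from a stranded kit, and the strand setting of the counting is not given in the sources used here. Stable mitochondrial RNA comes mostly from genes annotated on the plus strand, yet the 9 mitochondrial rows of the minus strand held 85.9% and 85.2% of mitochondrial counts in siEZH2 libraries and 78.9% and 85.2% in siCTRL libraries. MT-ND6, on the minus strand, held 29501 and 41158 counts in siEZH2 libraries and 53497 and 38229 in siCTRL libraries, against 913 and 1240 for MT-ND5, on the plus strand, in siEZH2 libraries and 3176 and 1262 in siCTRL libraries. MALAT1, a nuclear noncoding RNA that is abundant in most cells, held 69 and 26 counts in siEZH2 libraries and 124 and 90 in siCTRL libraries. Of 340 pairs of a protein-coding gene and the antisense row named for it, with a mean of 100 counts in either, the antisense row held more counts in 229 and more per kb in 249, and the median ratio per kb was 10.1. This comparison was added after the values were seen. A value is therefore given as that of a row of the table, not as the level of the gene's own RNA, and a row that faces a gene may hold that gene's reads. Neither a level nor a direction of the 7 genes' own transcripts can be read from these rows.

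Total counts were 6362561 and 6162123 in the siEZH2 libraries and 6867542 and 6818482 in the siCTRL libraries. Counts under the targeted gene EZH2 were 60 and 131 in the libraries labelled siEZH2 and 39 and 59 in those labelled siCTRL, which gave a log2 fold change of 0.51 (SE 0.52; Benjamini-Hochberg adjusted p = 0.621 by the quasi-likelihood test of edgeR). Per kb the EZH2 row stood at 1.2 and 1.94 times the level of rows of olfactory receptor genes, which are mostly silent, in siEZH2 libraries and 2.77 and 1.74 times in siCTRL libraries, so it was near background. The row of the targeted gene therefore does not check the labels, and every direction below is that of the libraries labelled siEZH2 against those labelled siCTRL. Of the rows of 10 prostate luminal markers all 10 were tested and all 10 had a negative log2 fold change, 7 of them also under the scaling on well-covered rows described below. KRT8 and KRT18, keratins of luminal cells, were at -0.74 and -0.60, and KRT18 came to 0.08 under that scaling. The summed counts of the 10 per kb of row were 3694 and 2044 in siEZH2 libraries and 3661 and 3634 in siCTRL libraries, and most of that was KRT8, whose row faces KRT18. Without KRT8 the sums were 718 and 584 in siEZH2 libraries and 858 and 904 in siCTRL libraries. KLK3, which encodes prostate-specific antigen and is named after its values were seen, had 58.2 and 80.6 per kb in siEZH2 libraries and 128 and 127 in siCTRL libraries. Of 11 markers of fibroblasts, basal cells and blood cells 8 were tested and all 8 were positive, with COL1A2, DCN and VIM at 0.56, 0.52 and 0.13, where VIM came to -0.0024 with RLE factors. The VIM row faces VIM-AS1, whose mean count was 13.4 times as high. KRT14, which was not tested, had 4 and 2 counts in siEZH2 libraries and 10 and 18 in siCTRL libraries. The sums of the 11 were 63.2 and 66.9 in siEZH2 libraries and 28.3 and 48.6 in siCTRL libraries, and none was at 0 in every library. Per row that averaged 5.75 and 6.08 counts per kb in siEZH2 libraries and 2.57 and 4.42 in siCTRL libraries, where olfactory receptor rows had 4.64 and 6.27 in siEZH2 libraries and 1.3 and 3.14 in siCTRL libraries. The part of these markers in the results below was not tested, and in bulk RNA fewer cells of a type and less RNA per cell cannot be told apart. The fold change also moved with the number of counts: its median was 0.49 on the log2 scale over rows with a mean of 20 to 50 counts and -0.71 over rows with 1000 or more. Each gene is therefore set beside the rows whose mean count lay within 1.5 times its own. The median mean count of the luminal marker rows was 232, and only 4.46% of all rows with 200 to 1000 counts were positive. A negative sign was thus usual at their counts. Beside rows of like count 8 of the 10 lay below the median and 2 above it, where KRT18 lay above 68.7% of such rows. Of the 8 tested markers of other cells 2 lay below and 6 above.

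Sequence upstream of the annotated starts is shown for the genes that had an entry in RefSeq's promoter windows (GRCh38.p14), which were 4 of the 7. ACAT2, SQLE and FDFT1 are not among them. These stretches show whether the genes under SREBP-2 share its letters, and end before the most upstream start that falls in the window in RefSeq or GENCODE release 29. Capitals mark the sterol regulatory element searched as TCACNCCAC, the NF-Y box CCAAT and the Sp1 box GGGCGG, each on both strands, so that the box of the other strand appears as ATTGG or CCGCCC. Sp1 boxes that overlap run together in capitals.
SREBF2: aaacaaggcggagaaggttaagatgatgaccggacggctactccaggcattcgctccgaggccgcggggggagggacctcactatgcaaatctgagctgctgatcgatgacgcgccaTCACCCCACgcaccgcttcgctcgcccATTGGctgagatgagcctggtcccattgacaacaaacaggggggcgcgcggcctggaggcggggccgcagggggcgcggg
HMGCS1: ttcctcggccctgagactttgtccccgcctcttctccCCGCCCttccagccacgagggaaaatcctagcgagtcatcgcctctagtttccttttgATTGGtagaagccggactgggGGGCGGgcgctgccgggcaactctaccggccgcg
INSIG1: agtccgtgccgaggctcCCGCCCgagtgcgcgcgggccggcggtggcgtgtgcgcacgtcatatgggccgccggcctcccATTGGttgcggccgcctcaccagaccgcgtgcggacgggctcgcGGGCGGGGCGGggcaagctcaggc
SOD2: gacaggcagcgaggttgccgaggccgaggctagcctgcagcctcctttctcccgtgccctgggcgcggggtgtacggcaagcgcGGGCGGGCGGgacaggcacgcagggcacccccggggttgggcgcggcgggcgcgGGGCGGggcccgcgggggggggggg
The SREBF2 stretch is chr22:41832855-41833078 on the plus strand and the INSIG1 stretch chr7:155297628-155297775 on the plus strand. The HMGCS1 stretch is chr5:43313513-43313662 and the SOD2 stretch chr6:159693329-159693491, both on the minus strand.

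SREBF2 carried 1 sterol element, TCACCCCAC, and 1 NF-Y box in its 224 bases. The first 224 bases of 0.812% of 35116 RefSeq windows hold that element, and those of 30.2% hold the box. HMGCS1 had 1 NF-Y box and 2 Sp1 boxes in 150 bases, and INSIG1 had 1 and 3 in 148 bases, where 18.9% and 18.6% of windows cut to the same lengths hold an NF-Y box and 25.8% and 25.5% an Sp1 box. Neither the HMGCS1 nor the INSIG1 stretch matched the sterol element, so SREBF2 alone did among the stretches shown. The SOD2 stretch had 3 Sp1 boxes (28.2% of windows of that length hold 1 or more) and neither of the others. Of 15 annotated SOD2 transcripts 4 have exons that overlap WTAP, upstream of this stretch, so it does not lie before their starts. A match describes these letters and is not evidence of binding, and an element spelled otherwise or lying outside the stretch would be missed.

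None of the 7 rows was called in either direction. By edgeR, 0 of the 7 and 0 of all 24431 rows passed an adjusted p of 0.05 in either direction (0% of rows higher, 0% lower). At an unadjusted p under 0.05, 1 of the 7 (SOD2, lower) stood beside 8.53% of rows higher and 7.91% lower. DESeq2 and limma-voom also called 0 of the 7. DESeq2 called 0.176% of the 4538 rows it gave an adjusted p higher and 19.9% lower, and gave none to HMGCS1, SQLE, INSIG1 and SREBF2. Of all 24431 rows limma-voom called 0.045% higher and 1.37% lower. By fitted value 5 of the 7 were negative and 2 positive. Normalised levels (CPM, counts per library size scaled by TMM) of the groups did not overlap for ACAT2, SOD2 and FDFT1, which were lower, and HMGCS1, which was higher. Such separation was found for 22.9% of rows downward and 31.4% upward.

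**Figure D1:**
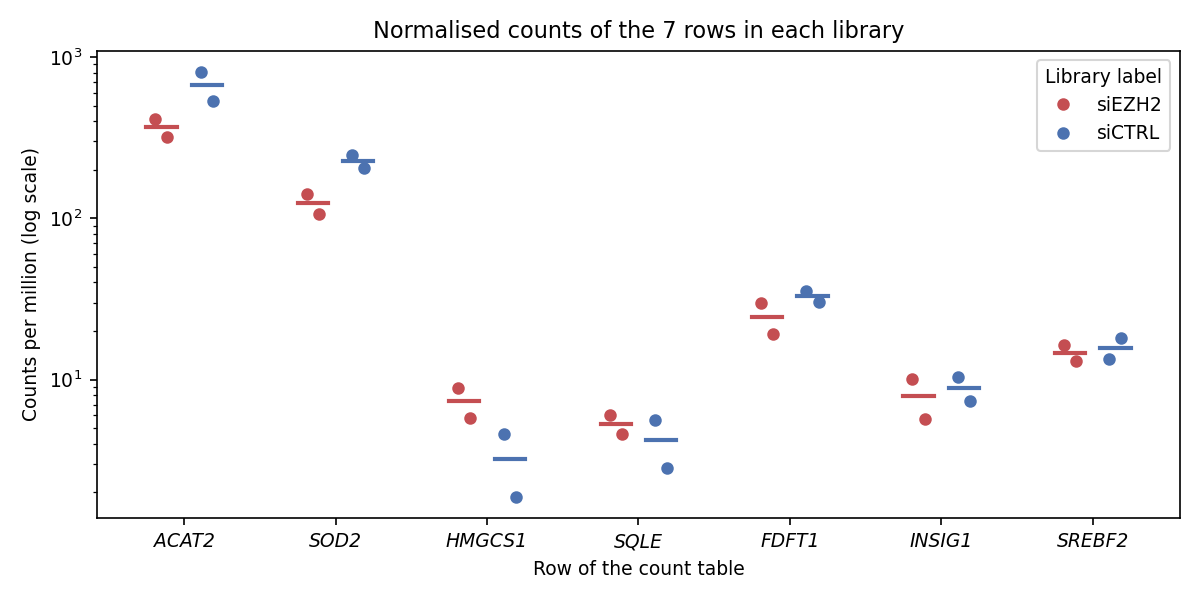
Normalised levels in CPM of the 7 rows on a log axis, a point for each library and a bar at each group's mean, siEZH2 in red and siCTRL in blue. The siEZH2 points lie below the siCTRL points for ACAT2, SOD2 and FDFT1 and above them for HMGCS1, and they overlap for SQLE, INSIG1 and SREBF2.

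ACAT2 (chr6:159760328-159779055, plus strand, GENCODE release 29 on GRCh38) had the row with most counts per kb among the 7, which may be reads of the minus strand, where TCP1 and SOD2 lie. The row had 2905 and 2567 counts in siEZH2 libraries and 3874 and 3421 in siCTRL libraries, and was lower in both siEZH2 libraries than in either control. Per kb of row length that was 1101 and 973 against 1468 and 1296. Normalised levels averaged 366 ± 69 CPM in siEZH2 and 672 ± 191 CPM in siCTRL libraries (SD, n = 2 each). The fitted log2 fold change was -0.87 (SE 0.43, edgeR adjusted p = 0.317), and DESeq2 gave an adjusted p of 0.0516. Among 269 rows of like count the median was -0.70 and 24.5% had a lower value, so the value of the ACAT2 row lay at the lower quartile (-0.87) of rows as abundant as itself.

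SOD2 (chr6:159669057-159762529, minus strand) had 988 and 859 counts in siEZH2 libraries and 1182 and 1297 in siCTRL libraries. Both siEZH2 values lay below both controls here too. Levels averaged 124 ± 24.7 CPM in siEZH2 and 225 ± 30.1 CPM in siCTRL libraries (SD, n = 2 each), and the fitted log2 fold change was -0.86 (SE 0.40, edgeR adjusted p = 0.297, DESeq2 adjusted p = 0.051). The 609 rows of like count had a median of -0.75, and 36.1% of them lay lower. Scaled on well-covered rows alone (200 counts or more in 2 libraries), under which the median of all rows was 0.88 instead of 0.22, ACAT2 came to -0.15 and SOD2 to -0.16.

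The ratio of the pair differed between the groups by less than it did between replicates. The ratio of ACAT2 to SOD2 counts was 2.94 and 2.99 in siEZH2 libraries and 3.28 and 2.64 in siCTRL libraries. The siEZH2 values fell between the controls. The mean log2 ratio was 1.57 in siEZH2 and 1.56 in siCTRL libraries, a difference of 0.01 (exact two-sided permutation test, p = 1), and a ratio within a library does not depend on its scaling. With 2 libraries a group an exact permutation test cannot go below p = 0.333. Leaving out siCTRL replicate 1 gave a difference of 0.17, and leaving out siCTRL replicate 2 gave -0.15.

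The exons of the pair touch at the start of ACAT2. In release 29 the overlap of 1141 bases runs over 1106 bases at chr6:159761037-159762142 and 35 bases at chr6:159762495-159762529, of which 55 bases are coding in ACAT2 and 0 in SOD2. Only 1 of 15 annotated SOD2 transcripts reaches there, and the exons of the rest share no base with those of ACAT2. As SOD2 is on the minus strand, this is the side on which its transcripts start. The row lengths in the deposited table are 2639 bases for ACAT2 and 18144 for SOD2, against 4299 and 18206 in this release, so the overlap in the authors' annotation may be smaller.

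At its other end ACAT2 meets TCP1, a subunit of the cytosolic chaperonin that folds actin and tubulin. The last exon of ACAT2 overlaps TCP1 over 397 bases at chr6:159778659-159779055, of which 168 are coding in ACAT2 and 8 in TCP1, and 4 of 18 TCP1 transcripts reach there. The TCP1 row had 949 and 934 counts in siEZH2 libraries and 1677 and 1303 in siCTRL libraries. Levels averaged 126 ± 14.2 CPM in siEZH2 and 277 ± 102 CPM in siCTRL libraries (SD, n = 2 each), and the fitted log2 fold change was -1.14 (SE 0.42, edgeR adjusted p = 0.224), where DESeq2 called it lower (adjusted p = 0.0243). The ratio of ACAT2 to TCP1 counts was 3.06 and 2.75 in siEZH2 libraries and 2.31 and 2.63 in siCTRL libraries. These did not overlap, and the difference in mean log2 ratio was 0.24 (exact permutation test, p = 0.333, the smallest possible).

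SOD2 in turn overlaps WTAP, a subunit of the RNA adenosine methyltransferase complex, over 437 bases. WTAP had 874 and 1325 counts in siEZH2 libraries and 1508 and 1285 in siCTRL libraries, a log2 fold change of -0.84 (edgeR adjusted p = 0.319). The ratio of SOD2 to WTAP counts was 1.13 and 0.648 in siEZH2 libraries and 0.784 and 1.01 in siCTRL libraries, and overlapped. With the strand of the counting in doubt, reads under ACAT2, SOD2, TCP1 and WTAP cannot be assigned to one gene from these files, in the shared bases or beyond them. SOD2-OT1, a noncoding gene that also faces ACAT2, held 4 and 4 counts in siEZH2 libraries and 0 and 14 in siCTRL libraries.

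**Figure D2:**
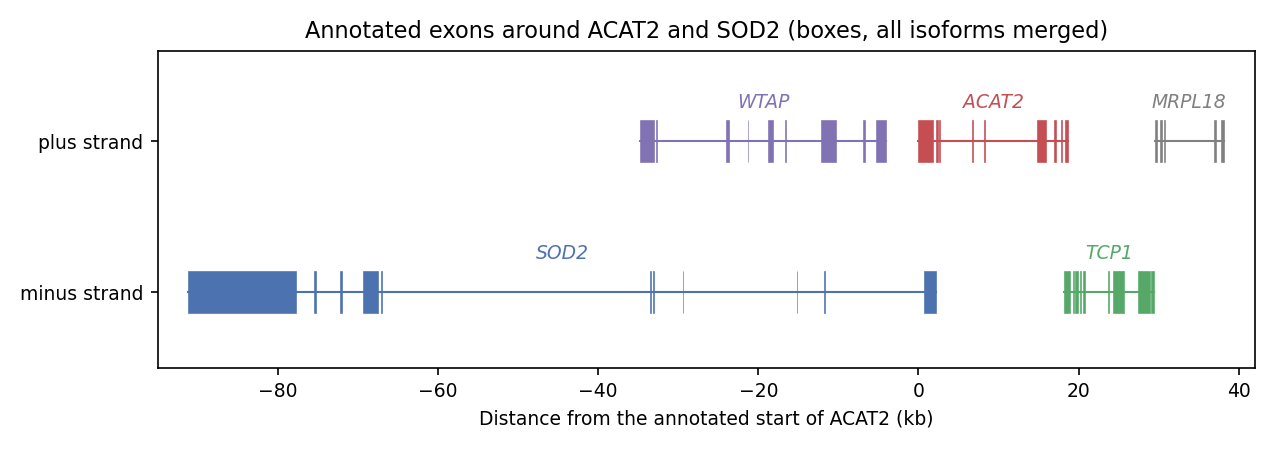
Exons of ACAT2, SOD2 and their neighbours in GENCODE release 29, all isoforms merged and drawn to scale by distance in kb from the annotated start of ACAT2, plus strand above and minus strand below. ACAT2 overlaps the far exon of SOD2 at its start and the last exon of TCP1 at its end.

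Farther neighbours on chromosome 6 lay on either side of 0, and none was called. IGF2R, the cation-independent mannose 6-phosphate receptor, had 210 and 257 counts in siEZH2 libraries and 81 and 117 in siCTRL libraries, a log2 fold change of 0.81, and 94.6% of 1727 rows of like count lay lower. Its row is 22613 bases long, and per kb it held 9.29 and 11.4 in siEZH2 libraries and 3.58 and 5.17 in siCTRL libraries. Olfactory receptor rows were also higher in siEZH2 libraries, at 4.64 and 6.27 against 1.3 and 3.14 in siCTRL libraries. MAS1, a G protein-coupled receptor, FNDC1 and PNLDC1, which encodes a ribonuclease that trims small RNAs in the germ line, had 1.36, 1.01 and 2.32. Per kb MAS1 held 6.84 and 11.5 in siEZH2 libraries and 1.62 and 3.78 in siCTRL libraries. FNDC1 held 7.01 and 6.13 in siEZH2 libraries and 0.584 and 4.67 in siCTRL libraries, so both were near background. PNLDC1 held 12.7 and 19 in siEZH2 libraries and 2.27 and 2.27 in siCTRL libraries. MRPL18, a mitochondrial ribosomal protein gene, had 11 and 4 counts in siEZH2 libraries and 27 and 31 in siCTRL libraries, at -2.34. The edgeR adjusted p of these rows ran from 0.26 for MRPL18 to 0.524 for FNDC1. SNORA20 and SNORA29, small nucleolar RNAs hosted by TCP1, held at most 7 counts in any library.

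The rows most like ACAT2 over the 4 libraries were ABRAXAS1, MEA1 and ANGPTL6, and those most like SOD2 were U47924.31, ELOF1 and RP11-123K3.9. Likeness was the distance between log2(CPM + 1) values centred over the libraries, among 4565 other rows that averaged 100 counts or more. The distances ran from 0.0371 to 0.0454 for ACAT2 and from 0.0316 to 0.0336 for SOD2, where 90% of rows lay within 1.24 and 1.23. MEA1 had 5476 and 4983 counts in siEZH2 libraries and 7204 and 6479 in siCTRL libraries. With 4 libraries many abundant rows follow the same course, and likeness is a description only.

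HMGCS1 had the 1 pathway row of the 7 with more normalised counts in both siEZH2 libraries than in either control. Its row (chr5:43289395-43313512, minus strand) held 62 and 47 counts in siEZH2 libraries and 22 and 12 in siCTRL libraries. Levels averaged 7.34 ± 2.15 CPM in siEZH2 and 3.23 ± 1.91 CPM in siCTRL libraries (SD, n = 2 each), and the fitted log2 fold change was 1.19 (SE 0.71, edgeR adjusted p = 0.391). The median of 7054 rows of like count was 0.46, and 80.3% of them lay lower. The value was 0.60 without siCTRL replicate 2 and 1.89 without siCTRL replicate 1.

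The counts of the HMGCS1 row were near those of silent genes. The 405 rows of olfactory receptor genes, which mostly are not expressed in tissues other than the nose, held 4.64 and 6.27 counts per kb in siEZH2 libraries and 1.3 and 3.14 in siCTRL libraries. HMGCS1 held 9.36 and 7.09 per kb in siEZH2 libraries and 3.32 and 1.81 in siCTRL libraries, which is 2.02 and 1.13 times that background in siEZH2 libraries and 2.54 and 0.576 times in siCTRL libraries. Relative to this background no library group was higher throughout. Its exons overlap 703 bases of a noncoding gene on the other strand, AC114947.2, which is not analysed here.

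SQLE and INSIG1, whose exons face no annotated gene, were low as well. The SQLE row (chr8:124998497-125022283, plus strand) held 42 and 37 counts in siEZH2 libraries and 27 and 18 in siCTRL libraries. Normalised levels overlapped, at 5.29 ± 1.01 CPM in siEZH2 and 4.22 ± 1.98 CPM in siCTRL libraries (SD, n = 2 each). The fitted log2 fold change of 0.33 (SE 0.72, edgeR adjusted p = 0.834) lay under the median of 0.51 for 7275 rows of like count and was -0.16 without siCTRL replicate 2. SQLE stood at 1.33 to 4.81 times the olfactory receptor background.

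INSIG1 (chr7:155297776-155310235, plus strand) held 71 and 46 counts in siEZH2 libraries and 50 and 47 in siCTRL libraries, with overlapping levels of 7.92 ± 3.15 CPM in siEZH2 and 8.89 ± 2.15 CPM in siCTRL libraries (SD, n = 2 each). Its log2 fold change was -0.17 (SE 0.56, edgeR adjusted p = 0.898) with the usual factors and 0.53 under the scaling on well-covered rows. The median of 5936 rows of like count was 0.32, and 31.4% lay lower. Its counts were 2.01 to 10.5 times the background per kb.

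FDFT1 (chr8:11795573-11839309, plus strand) had more counts, 208 and 155 in siEZH2 libraries and 169 and 194 in siCTRL libraries. Before scaling the groups overlapped, and after it they did not, at 24.4 ± 7.46 CPM in siEZH2 and 32.8 ± 3.35 CPM in siCTRL libraries (SD, n = 2 each). The fitted log2 fold change was -0.42 (SE 0.42, edgeR adjusted p = 0.608), against a median of -0.63 for 1599 rows of like count, and it was 0.26 under the scaling on well-covered rows. FDFT1 thus lay above 65.9% of the rows as abundant as itself although its fitted value was negative. Its exons overlap 217 bases of a noncoding gene on the other strand, AC069185.1, which is not analysed here.

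SREBF2 (chr22:41833079-41907308, plus strand) held 115 and 105 counts in siEZH2 libraries and 65 and 115 in siCTRL libraries. The groups overlapped, at 14.7 ± 2.44 CPM in siEZH2 and 15.8 ± 3.19 CPM in siCTRL libraries (SD, n = 2 each). Its log2 fold change was -0.11 (SE 0.46, edgeR adjusted p = 0.922) and 0.54 under the scaling on well-covered rows, and 54.2% of 3014 rows of like count lay lower.

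The row of the antisense gene at the SREBF2 start held several times the counts of the SREBF2 row, and which of the 2 genes its reads came from cannot be told from these files. SREBF2-AS1 overlaps 280 exonic bases of SREBF2 at chr22:41833079-41833358, just after the upstream stretch printed above. Its row had 780 and 665 counts in siEZH2 libraries and 883 and 724 in siCTRL libraries, 6.78 and 6.33 times SREBF2 in siEZH2 libraries and 13.6 and 6.3 times in siCTRL libraries. The ratio was highest in siCTRL replicate 1, where SREBF2 was lowest, and the siEZH2 values lay between the controls. Its log2 fold change was -0.62 (edgeR adjusted p = 0.44) and 0.11 under the scaling on well-covered rows.

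**Figure D3:**
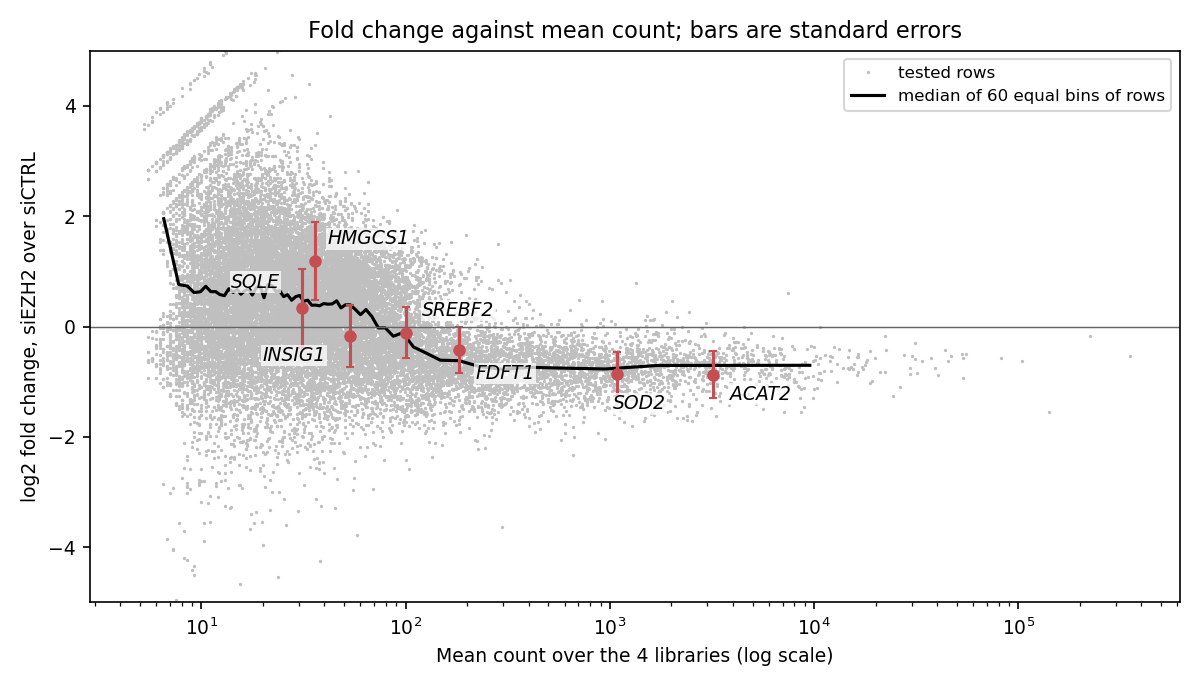
The log2 fold change of siEZH2 over siCTRL against the mean count on a log axis, for all tested rows in grey (231 rows beyond 5 are not drawn), with the median of 60 bins of equal row number as a black line and the 7 genes in red with their standard errors. ACAT2, SOD2, SREBF2 and SQLE sit close to the line, HMGCS1 and FDFT1 above it and INSIG1 below it.

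Across the wider pathway, most cholesterol synthesis rows lay below the median of rows of like count, less markedly among the rows with more counts. The list of 23 enzymes was in the table in full and 21 were tested, of which 0 were called in either direction, 14 were negative and 7 positive. Their median log2 fold change was -0.57, beside 0.22 over all tested rows, of which 10578 were negative and 13853 positive. Of the 21 members 16 lay below the median of the rows of like count and 5 above it. The count was also 16 of 21 under RLE and upper-quartile factors and under the scaling on well-covered rows. Other factors move all rows by nearly the same amount, so this count could hardly change and its sameness is no support. Under the scaling on well-covered rows the list median was 0.21, the median of all rows 0.88 and the split 9 negative to 12 positive. Without siEZH2 replicate 2 or without siCTRL replicate 1 the count was 14 of 23. With at least 50 counts in 2 libraries it was 7 of 11, and the list median was -0.25 beside -0.0015 over all rows. The median mean count of the 21 was 40.5, so many of these rows had few counts. Lying below rows of like count was not particular to this list. It was found for 13 of 17 superoxide and peroxide rows, 8 of 10 luminal marker rows and 8 of 12 SREBP control rows. It was found for fewer in other lists, 7 of 17 rows of uptake, storage and export and 2 of 10 thiolase and HMG-CoA rows.

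FDPS was among the members with an unadjusted p under 0.05 by edgeR, of which 0 were positive and 2 negative among the 21 tested. Over all tested rows 8.53% were higher and 7.91% lower at that threshold, so the count is no result about the pathway. FDPS, IDI1, EBP, LSS and DHCR7 are named here after their values were seen. FDPS makes farnesyl diphosphate, the branch point to sterols and to protein prenylation. Its row had 22 and 57 counts in siEZH2 libraries and 54 and 111 in siCTRL libraries, which overlap before scaling and not after it. Levels averaged 5.1 ± 2.76 CPM in siEZH2 and 14.3 ± 4.37 CPM in siCTRL libraries (SD, n = 2 each), and the fitted log2 fold change was -1.49 (SE 0.57, edgeR adjusted p = 0.232), and 2.31% of rows of like count lay lower.

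Other late enzymes had low counts. EBP, the sterol isomerase, had 9 and 7 counts in siEZH2 libraries and 19 and 20 in siCTRL libraries, at a log2 fold change of -1.71. LSS, which closes the sterol rings, and DHCR7, the last reductase, had -1.32 and -0.77. The edgeR adjusted p of these genes were 0.399, 0.586 and 0.519. MVK, mevalonate kinase, had 792 and 657 counts in siEZH2 libraries and 904 and 1012 in siCTRL libraries, at -0.84 (edgeR adjusted p = 0.307), close to the median of -0.76 for rows of like count.

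**Figure D4:**
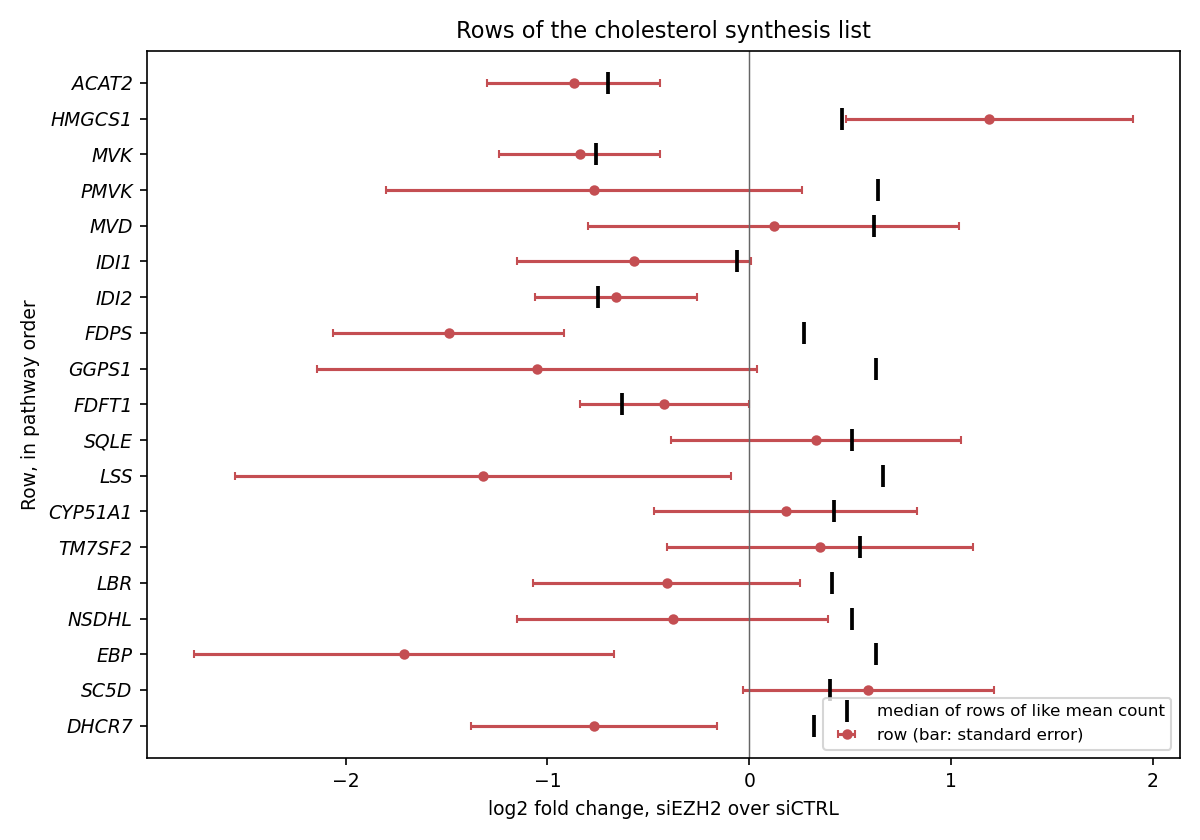
The log2 fold change of siEZH2 over siCTRL for 19 tested cholesterol synthesis rows in pathway order, with standard errors as bars and the median of rows of like count as a black tick. HMGCS1, at 1.19, lies right of its tick, and FDPS, at -1.49, LSS and EBP lie farthest to the left of theirs.

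Several pathway rows, picked out after their values were seen, faced a row with many more counts on the other strand. Of the 23 enzymes 12 overlap an annotated exon of another gene on the opposite strand, and their median was 18.4 counts per kb, while the other 11 had a median of 7.2. Over all tested protein-coding rows the medians were 9.27 for 5900 rows that face a gene and 5.87 for 9415 that do not. Of 8 enzymes whose opposite row is in the table, that row held more counts than the enzyme for 6. RUSC1-AS1, opposite FDPS, had 8858 and 7204 counts in siEZH2 libraries and 13023 and 12307 in siCTRL libraries, 170 times the mean of the FDPS row, and a log2 fold change of -1.11 (edgeR adjusted p = 0.272). IDI2-AS1, opposite the isopentenyl diphosphate isomerase gene IDI1, had 560 and 406 counts in siEZH2 libraries and 721 and 605 in siCTRL libraries, 6.57 times the mean of the IDI1 row. These ratios are of rows, and do not show which strand was transcribed. MVK went the other way, as its opposite row MMAB held 0.0449 times its mean.

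**Figure D5:**
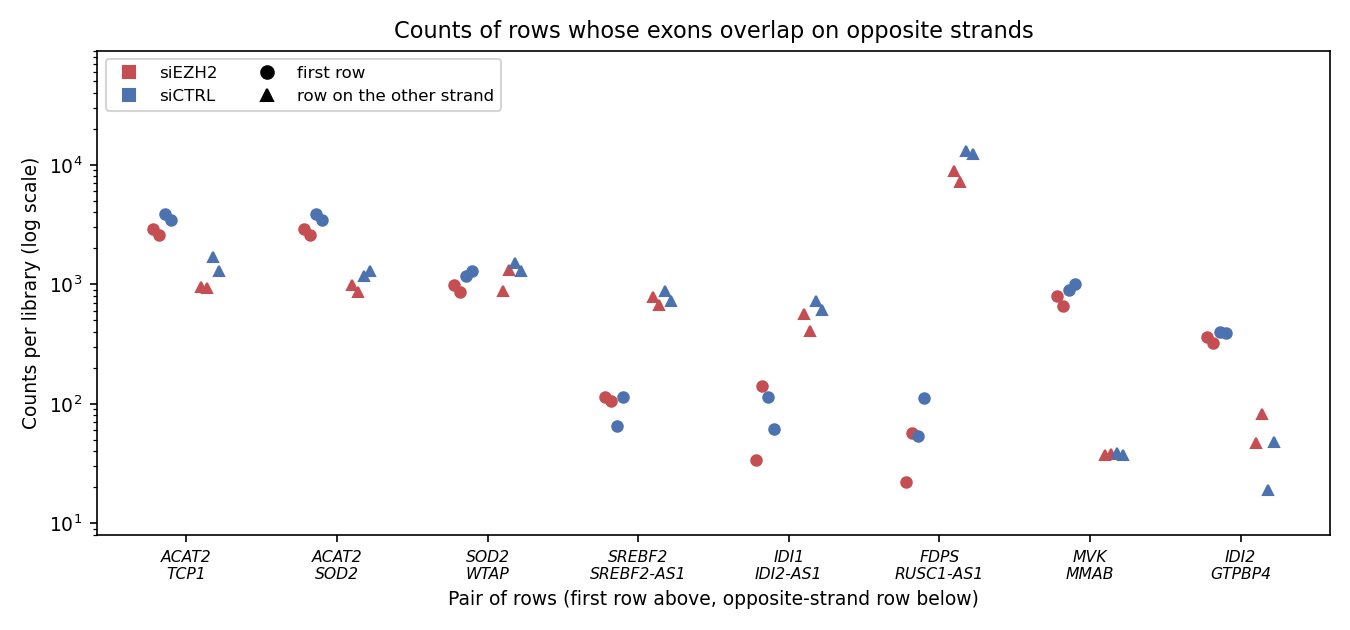
Counts in each library on a log axis for 8 pairs of rows whose exons overlap on opposite strands, the first row as circles and the opposite row as triangles, siEZH2 in red and siCTRL in blue. RUSC1-AS1 stands far above FDPS in every library, SREBF2-AS1 above SREBF2, and ACAT2 above both TCP1 and SOD2.

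Rows of genes that control SREBP gave no common direction. All 12 were tested, with 5 positive and 7 negative, a median of -0.11 and 0 calls, and 8 lay below the median of rows of like count. SREBF1, encoding the related factor SREBP-1, had 1130 and 1208 counts in siEZH2 libraries and 1403 and 1243 in siCTRL libraries, at -0.65 (edgeR adjusted p = 0.414). Its row faces RAI1. SCAP, the escort protein that INSIG1 binds, and FAF2, which helps degrade INSIG proteins, had -0.53 and -0.37. All 12 were positive under the scaling on well-covered rows, with a median of 0.55 against 0.88 for all rows.

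Genes of cholesterol uptake, storage and export were split as well, with 7 of 17 positive and 10 negative, a median of -0.04, 0 calls and 7 below the median of rows of like count. NPC1 and NPC2, which carry cholesterol out of lysosomes, had -0.65 and -0.56, and NR1H3, the sterol-sensing receptor LXR alpha, had -0.37. All of these faced a gene on the other strand and turned positive under the scaling on well-covered rows, at 0.04, 0.17 and 0.31. ABCA1, a cholesterol exporter named after its values were seen, had 85 and 107 counts in siEZH2 libraries and 24 and 42 in siCTRL libraries, at 1.12 (edgeR adjusted p = 0.304). Per kb that was 7.49 and 9.43 in siEZH2 libraries and 2.12 and 3.7 in siCTRL libraries. Olfactory receptor rows had 4.64 and 6.27 in siEZH2 libraries and 1.3 and 3.14 in siCTRL libraries, so the ABCA1 row was near background.

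Among genes that remove superoxide and peroxide, 12 of 17 tested were negative and 5 positive, with a median of -0.57 and 0 calls, and 13 lay below the median of rows of like count. SOD1, the cytosolic counterpart of SOD2, had 49 and 40 counts in siEZH2 libraries and 101 and 146 in siCTRL libraries, which did not overlap. Its log2 fold change was -1.88 (SE 0.49, edgeR adjusted p = 0.189), limma-voom called it lower (adjusted p = 0.0228), and 0.552% of rows of like count lay lower. SOD1 was named after its values were seen, and its row shares no exonic base with an annotated gene on the other strand. PRDX1, a peroxiredoxin, had 266 and 249 counts in siEZH2 libraries and 459 and 360 in siCTRL libraries, at -1.14 (edgeR adjusted p = 0.219), and DESeq2 called it lower (adjusted p = 0.0359). Its row faces MMACHC, whose mean was 59.7 times as high. TXNRD2, the mitochondrial thioredoxin reductase, had 0.14. The list median was 0.08 under the scaling on well-covered rows.

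Thiolases and the enzymes around HMG-CoA had 7 positive and 3 negative members of 10 tested, a median of 1.01, 0 calls and 8 above the median of rows of like count. ACAT2 and HMGCS1 belong to this list and to the synthesis list alike. SCP2, a sterol carrier with a peroxisomal thiolase domain, and HADHA, of mitochondrial fatty acid oxidation, had 0.97 and -0.14. Per kb SCP2 held 10.1 and 5.69 in siEZH2 libraries and 2.18 and 4 in siCTRL libraries. Olfactory receptor rows had 4.64 and 6.27 in siEZH2 libraries and 1.3 and 3.14 in siCTRL libraries. HADHA stood higher, at 19.2 and 39.3 in siEZH2 libraries and 20.3 and 26.3 in siCTRL libraries. The median mean count of the list was 35.2, and 2 members remained with at least 50 counts in 2 libraries. Without siEZH2 replicate 2 or siCTRL replicate 2 the number above rows of like count was 6 of 10.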

How the data were processed

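Total RNA of C4-2 cells entered a stranded total RNA library kit, per the labels' protocols. The submitters' processing notes name GRCh38, STAR 2.7.10b, featureCounts 2.0.3, edgeR and limma without roles; the annotation and strand setting of the counting are not known from them. Whole-number counts for each gene, without normalisation, were deposited by the authors together with row lengths in bases. Groups came from the sample titles.

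The test was that of edgeR 4.0.16 (R 4.3.3): filterByExpr, TMM, glmQLFit and glmQLFTest without covariates, Benjamini-Hochberg adjustment over all 24431 tested rows and calls at 0.05. TMM factors were 1.12 and 1.34 for siEZH2 and 0.704 and 0.945 for siCTRL. A standard error (SE) is the size of the log2 fold change over the root of F. The common dispersion was 0.216. The procedure was tested on simulated data. Positions and opposite-strand exons come from GENCODE release 29, on which 63.5% of rows were placed by symbol, or by an older symbol for opposite genes. An overlap of 1 base counts. Which strand's reads the rows hold was examined on mitochondrial rows and on genes paired with antisense rows of their name. Of the 7 genes, 2 had the same row length there. Ratios use counts plus 1 on the log2 scale.

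Named were the 7 genes, EZH2, rows facing them, listed neighbours, the nearest rows in pattern, and the 3 listed rows with most counts per list; FDPS, IDI1, EBP, LSS, DHCR7, ABCA1, SOD1 and the rows opposite listed genes were added after their values were seen. Some rows that the rule names are not reported here. The genes and lists were chosen with earlier results of these data known. Alternatives were RLE and upper-quartile factors, factors from well-covered rows (200 counts or more in 2 libraries), DESeq2 1.42.0, limma-voom (limma 3.58.1), no filter, at least 50 counts in 2 libraries, a replicate block, and leaving out each library in turn. Python 3.11.15 was used with scipy 1.17.1, numpy 2.4.6, matplotlib 3.10.9 and pandas 2.3.3.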

Additional observations from a re-analysis of the deposited data

How the results depend on the processing

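Of 49 named rows with a fit, 580 values under alternatives gave 531 on the same side of the threshold with the same sign, 16 past it and 33 of opposite sign. Rows called over the table were 13 with RLE factors, 913 with DESeq2, 345 with limma-voom, 80 with no low-count filter and 1327 with the replicate block, and from 1 to 234 with a library left out, against 0. A group left with 1 library takes its spread from the other group. Of the 7 genes 1 was called under the replicate block (ACAT2, -0.86, adjusted p = 0.0257) and 0 under the other alternatives. The titles share replicate numbers. Over all tested rows, libraries of the same number deviated from their group means with a correlation of 0.0502. Most of those rows have few counts, so this does not settle whether the numbers pair the libraries. The main fit took no pairing. The synthesis list's median was -0.73 with RLE, -0.75 with DESeq2, 0.21 with scaling on well-covered rows, -0.25 with the filter at 50 counts and from -0.85 to -0.38 with a library left out. The difference in log2 ratio of ACAT2 to SOD2 moved by less than its spread (SD 0.157) under the other settings, and from -0.15 to 0.17 with a library left out.

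Scaling on well-covered rows turned FDFT1 to 0.26, INSIG1 to 0.53, SREBF2 to 0.54, SREBF2-AS1 to 0.11, SREBF1 to 0.09, SCAP to 0.24, FAF2 to 0.32, NPC1 to 0.04, NPC2 to 0.17, NR1H3 to 0.31, HADHA to 0.59, KRT18 to 0.08, IDI1 to 0.28 and MMACHC to 0.15. With at least 50 counts INSIG1 came to 0.23, SREBF2 to 0.26, FAF2 to 0.02, NR1H3 to 0.02 and HADHA to 0.27. VIM was -0.0024 with RLE and -0.0047 with DESeq2. With a library left out the ranges that crossed 0 were -0.16 to 0.83 for SQLE, -0.72 to 0.18 for INSIG1, -0.37 to 0.04 for SREBF2, -0.04 to 0.81 for EZH2, -0.21 to 0.41 for TXNRD2, -0.63 to 0.13 for HADHA, -0.25 to 0.37 for VIM and -1.77 to 0.13 for IDI1. The cause was not tested. A biological coefficient of variation of 46.5% with 2 libraries a group, and counts under 100 for HMGCS1, SQLE and INSIG1, limit what could be called.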
